A study of Mus musculus with 7 samples.

Results

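The Slit and Robo genes encode a family of axon guidance ligands and their receptors. The 6 genes described here, Slit1, Slit2, Slit3, Robo1, Robo2 and Robo3, were taken by their symbols from a table of 50600 genes, and their 48 annotated transcripts from a table of 125570. All 6 genes had counts in all 7 libraries and passed the filter on low counts in each comparison. Of the 48 transcripts, 38 were above 0 TPM (a level scaled by transcript length and library) in at least 1 library and 15 had a mean TPM of at least 0.5 and were tested.

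Olfactory epithelium, the lining of the nasal cavity that holds the sensory neurons, was taken whole from mice at postnatal day 7. Of the 7 libraries, 1 was from an Amigo1+/+ mouse (WT), 3 were from Amigo1-/- mice (KO) and 3 were from Amigo1neo/neo mice (neo), in which a neomycin cassette sits at the Amigo1 locus in place of the coding region. Amigo1, a leucine-rich repeat adhesion protein, is targeted in both mutant groups, and the comparison of neo with KO sets the cassette allele against the other mutant allele. The neo sample names also carry another prefix and date-like number than those of KO and WT, which cannot be told apart from genotype. WT has a single library, and separate animals are not stated for the mutant libraries, so the p-values rest on a spread among libraries that may be partly technical.

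Slits are large secreted proteins that bind the immunoglobulin domains of Robo receptors and usually repel growing axons, with heparan sulfate as a co-factor. In the mouse olfactory system, Robo2 is graded from the dorsal to the ventral epithelium in sensory neurons, and Slit1 and Robo2 help to send dorsal axons to the dorsal olfactory bulb. Robo1 acts beside Robo2 in that projection and is also made by ensheathing glia, whereas Robo3 is best known for its role at the midline of the hindbrain and spinal cord.

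Gene counts totalled 14879415 to 21343058 per library. Amigo1 had 744 counts in WT and at most 0.884 CPM (gene counts scaled to library size, after TMM) in the 6 mutant libraries, where WT had 34.2 CPM. Xist, the RNA of the inactive X chromosome, reached 643 CPM in WT and, in neo replicate 1, 1144 CPM, and was at most 4.18 CPM in the other 5 libraries, so the sexes were unequally spread over the groups. Omp, the marker of mature olfactory neurons, was at 783 to 1162 CPM. Markers of autonomic ganglia summed to 20.6 CPM in WT and to 0.657 to 2.13 CPM elsewhere, with Vip alone at 14.3 CPM in WT. The part of the sex and of these cells in any difference from WT was not tested.

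Robo2 and Robo1 were more abundant than any ligand within each library. On the TPM scale the order was Robo2, Robo1, Slit2, Slit1, Slit3 and Robo3, and each neighbouring pair stood in that order in 7 of 7 libraries. Robo2 averaged 32.6 TPM ± 5.72 (SD, n = 7) and Robo1 19.0 ± 3.53, and Robo2 exceeded Robo1 by 1.42 to 1.94 times within a library. Slit2 followed at 13.4 TPM ± 3.07, and its range overlapped that of Robo1 across libraries, although Robo1 was 1.07 to 2.07 times as high within each. Slit1 averaged 6.17 TPM ± 1.41, Slit3 3.20 ± 0.575 and Robo3 0.586 ± 0.258, with no overlap between the ranges of neighbours. Summed over the 3 receptors, TPM ran from 41.5 to 67.2, and over the 3 ligands from 19.5 to 30.0. Robo2 made up 58.2 to 65.7% of receptor TPM and Slit2 50.6 to 66.6% of ligand TPM.

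**Figure D1:**
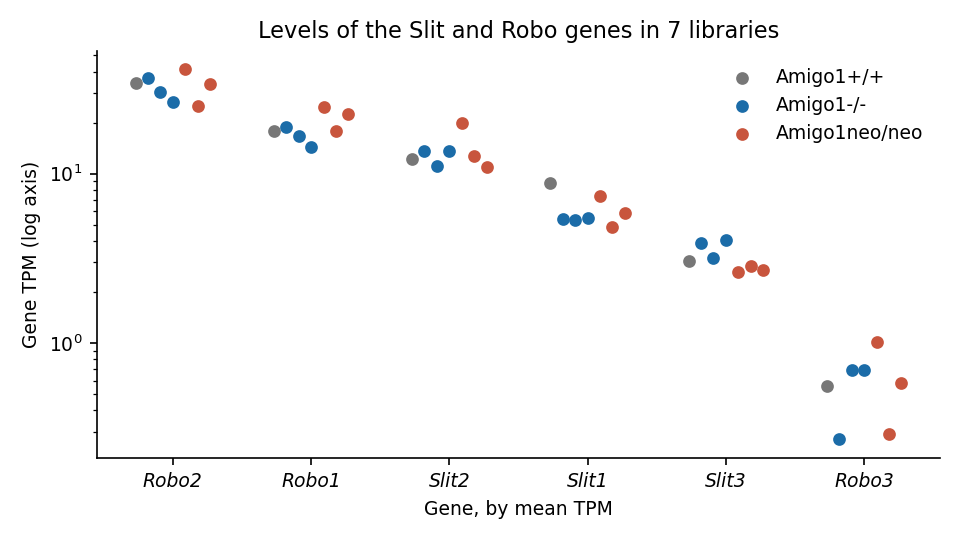
Gene TPM (log axis) of each Slit and Robo gene, 1 point per library, coloured by Amigo1 genotype. Robo2 is highest at 25.2 to 41.4 TPM and Robo3 lowest at 0.27 to 1.02 TPM, and each neighbouring pair of genes stands in the plotted order in 7 of 7 libraries.

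None of the 6 genes passed the test in any of the 3 comparisons. In neo against KO, 0 of 6 genes had an adjusted p under 0.05 (edgeR quasi-likelihood test, Benjamini-Hochberg over all genes), where 0.0170% of the 17638 genes tested did. The adjusted p-values of the 6 genes ran from 0.384 to 0.931 in edgeR. At an unadjusted p under 0.05, Slit2 and Slit3 were lower in neo and Robo1 was higher, against a background of 4.72% of genes lower and 4.59% higher. DESeq2 called none of the 6 either, with 0.574% of genes called, and in the authors' deposited table their adjusted p-values ran from 0.151 to 0.999, with 0.429% of genes called. In KO against WT and in neo against WT, 0 of 6 genes passed in edgeR, where 0.00523% and 0.0105% of genes did, and no member had an unadjusted p under 0.05, as 0.727% and 2.97% of genes did. These 2 comparisons share the WT library, so their values are not independent. The median log2 difference of the 6 genes in neo against KO was 0.03, beside -0.0022 over all genes tested.

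**Figure D2:**
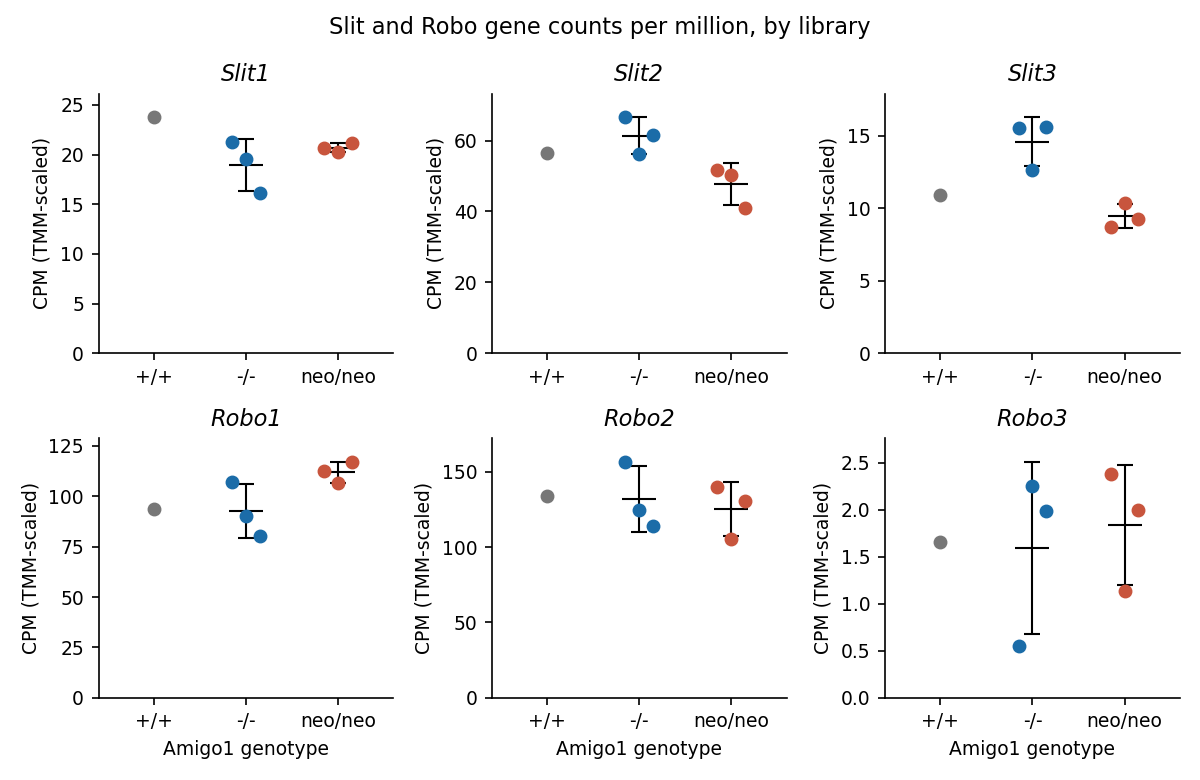
CPM of each gene by Amigo1 genotype, 1 point per library, with the mean and SD of the groups of 3 in black; vertical axes start at 0. The 3 neo/neo points lie below all 3 -/- points for Slit2 and Slit3, and the groups overlap for the other genes.

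Among the ligands, Slit3 (ENSMUSG00000056427.10, chr11:35121224-35708507, plus strand, GRCm38) differed most between neo and KO. Its level was 15.6, 12.6 and 15.6 CPM in KO replicates 1 to 3, 8.72, 10.3 and 9.24 CPM in neo replicates 1 to 3, and 10.9 CPM in WT. These rest on 236 to 282 counts per KO library, 139 to 205 per neo library and 238 in WT. Every neo library lay below every KO library, and WT lay between the groups. The log2 difference of neo from KO was -0.63 (SE 0.15, 95% interval -0.97 to -0.28), a level of 0.647 times that of KO, with an unadjusted p of 0.00253 and an adjusted p of 0.384 in edgeR. The closest approach to the threshold was an adjusted p of 0.0880 in DESeq2, and in the authors' deposited table the log2 difference of KO from neo was 0.63 with an adjusted p of 0.151. Against WT, Slit3 was 0.41 higher in KO (95% interval -0.08 to 0.90) and 0.21 lower in neo (95% interval -0.69 to 0.26) on the log2 scale, and both intervals hold 0. The deposited TPM values, at 3.19 to 4.08 in KO, 2.64 to 2.85 in neo and 3.04 in WT, showed the same separation, but the log2 difference on that scale was smaller, at -0.43 with a pseudocount of 0.1 and -0.34 with a pseudocount of 1.

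Slit2 (ENSMUSG00000031558.15, chr5:47983138-48307733, plus strand), the most abundant ligand in TPM but below Slit1 in CPM per kb of exon in 7 of 7 libraries, was at 66.6, 56.1 and 61.5 CPM in the 3 KO libraries, 51.8, 50.4 and 41.1 CPM in the 3 neo libraries and 56.5 CPM in WT. All neo libraries were again below all KO libraries, and WT fell inside the KO range. Such a gap, with all 3 neo libraries below all 3 KO libraries, was found for 2 of the 6 genes and for 7.98% of all genes tested. The log2 difference of neo from KO was -0.36 (SE 0.12, 95% interval -0.63 to -0.09), with an unadjusted p of 0.0156 and an adjusted p of 0.496 in edgeR. From WT, KO differed by 0.12 (95% interval -0.26 to 0.50) and neo by -0.24 (95% interval -0.62 to 0.13) on the log2 scale. All 3 neo libraries lay below the WT library for each of the 3 ligands, as for 22.1% of all genes.

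Neo replicate 1 is the neo library with high Xist, while none of the KO libraries has it. Without that library, the log2 difference of neo from KO was -0.57 for Slit3 (adjusted p = 0.209 in edgeR) and -0.42 for Slit2 (adjusted p = 0.227). Both differences had the same sign as with all 6 libraries.

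Slit1 (ENSMUSG00000025020.11, chr19:41600257-41743665, minus strand), the ligand tied to zonal targeting of olfactory axons, was at 21.2, 19.5 and 16.1 CPM in KO, at 20.6, 20.3 and 21.2 CPM in neo and 23.8 CPM in WT. KO and neo overlapped, and WT was the highest library. The log2 difference of neo from KO was 0.13 (SE 0.13, 95% interval -0.17 to 0.43), which spans levels of 0.888 to 1.35 times that of KO. From WT, KO differed by -0.33 (95% interval -0.74 to 0.09) and neo by -0.20 (95% interval -0.61 to 0.21), with an adjusted p of 1 in edgeR for KO and 0.9999 for neo. A place below or above the single WT library in all 3 KO libraries was held by 40.4% of all genes. On gene TPM with a pseudocount of 0.1 the KO difference was -0.69, larger than on counts. Of the 8.82 TPM of Slit1 in WT, 2.63 were assigned to Slit1-204, a short retained-intron model that was at 0, 0 and 1.46 TPM in the KO libraries.

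**Figure D3:**
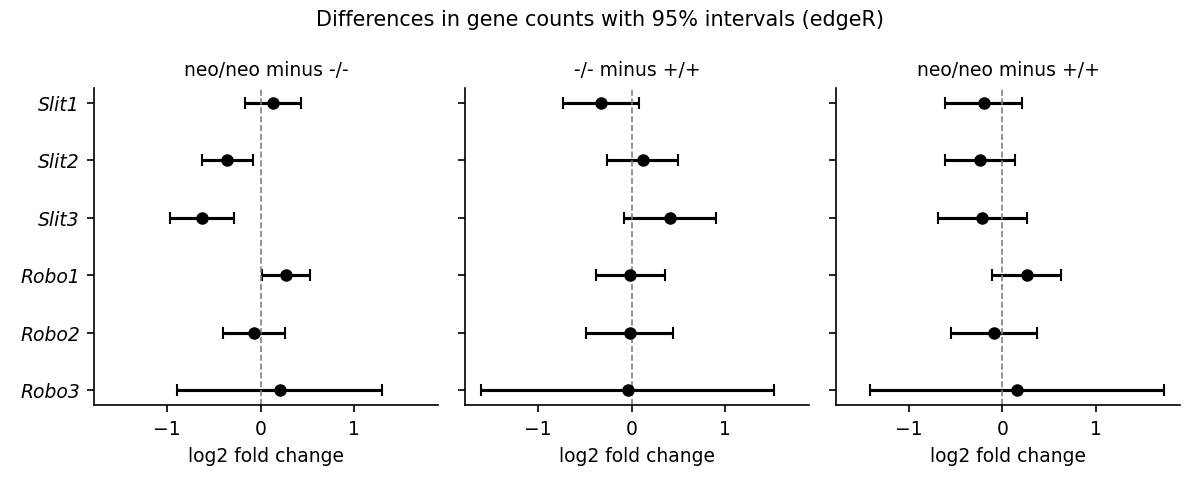
Log2 fold changes of the 6 genes in the 3 comparisons, with 95% intervals from edgeR; the dashed line marks no difference. In neo/neo minus -/-, the intervals of Slit2, Slit3 and Robo1 leave out 0, and no gene passed after adjustment over all genes.

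The promoters of Slit2 and Slit3 are shown for their sequence. In CPM, every neo library lay below every KO library for both genes, though neither passed the test. RefSeq windows (GRCm38.p6) of 300 bases, from 250 before to 50 after the annotated start, matched 5 of the 6 genes. They are printed on the plus strand, the strand of both genes, with GC boxes (GGGCGG or its reverse complement CCGCCC) and the TATA motif (TATAAA) in capitals, and overlapping GC boxes run together. The first lies at chr5:47982905-47983204 and the second at chr11:35121206-35121505. The start used for the Slit3 window differs from that of the gene as given above, which begins at 35121224. Most of the Slit3 window, with its GC boxes, therefore lies inside that gene model, whereas most of the Slit2 window lies before the Slit2 gene.
Slit2: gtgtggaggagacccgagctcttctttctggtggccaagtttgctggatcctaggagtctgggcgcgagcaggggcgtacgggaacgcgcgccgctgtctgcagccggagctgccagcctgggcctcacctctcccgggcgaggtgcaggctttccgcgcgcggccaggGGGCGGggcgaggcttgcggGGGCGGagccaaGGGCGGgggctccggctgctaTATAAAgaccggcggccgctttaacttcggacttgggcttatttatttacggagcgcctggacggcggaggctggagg
Slit3: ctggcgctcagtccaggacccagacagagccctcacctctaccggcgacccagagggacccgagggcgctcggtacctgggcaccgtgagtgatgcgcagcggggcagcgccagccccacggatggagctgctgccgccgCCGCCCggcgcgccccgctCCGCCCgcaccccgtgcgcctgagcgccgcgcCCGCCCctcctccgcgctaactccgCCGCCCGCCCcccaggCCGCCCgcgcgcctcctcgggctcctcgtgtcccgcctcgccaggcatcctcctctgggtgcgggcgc
Both windows are rich in CpG. Slit2 holds 30 CpG at 68% GC and Slit3 41 CpG at 78.3% GC, against medians of 7 CpG and 52.7% GC over the 32851 promoters of the table. Slit2 has 3 GC boxes and 1 TATA motif and Slit3 has 6 GC boxes and no TATA motif. On either strand, 35.7% of all promoters hold a GC box and 13.6% hold TATAAA, so the letters themselves are common. The Robo1 window has 15 CpG at 57% GC.

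Slit2 counts and Slit2 TPM went in opposite directions in neo against KO. Gene TPM was 13.5, 11.2 and 13.5 in KO and 19.96, 12.7 and 10.9 in neo, with 12.2 in WT, and the log2 difference on that scale with a pseudocount of 0.1 was 0.15 (adjusted p = 0.942, limma). The 2 groups overlapped, with neo replicate 1 the highest library of all 7. The median of all genes on that scale was itself 0.10 higher in neo.

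The transcript models of Slit2 did not all differ the same way. The 4 protein-coding models that cover over 90% of the Slit2 gene summed to 9.76, 8.75 and 8.99 TPM in KO, to 8.87, 7.07 and 6.38 TPM in neo and to 9.49 TPM in WT. The other 19 models, of which 10 retain introns, summed to 3.77, 2.39 and 4.53 TPM in KO, to 11.1, 5.66 and 4.52 TPM in neo and to 2.65 TPM in WT. These other models were highest in neo replicate 1, where they exceeded the long coding ones. Several of them are short, such as Slit2-212 with 878 bases. The part of these models in the opposite directions of counts and TPM was not tested.

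**Figure D4:**
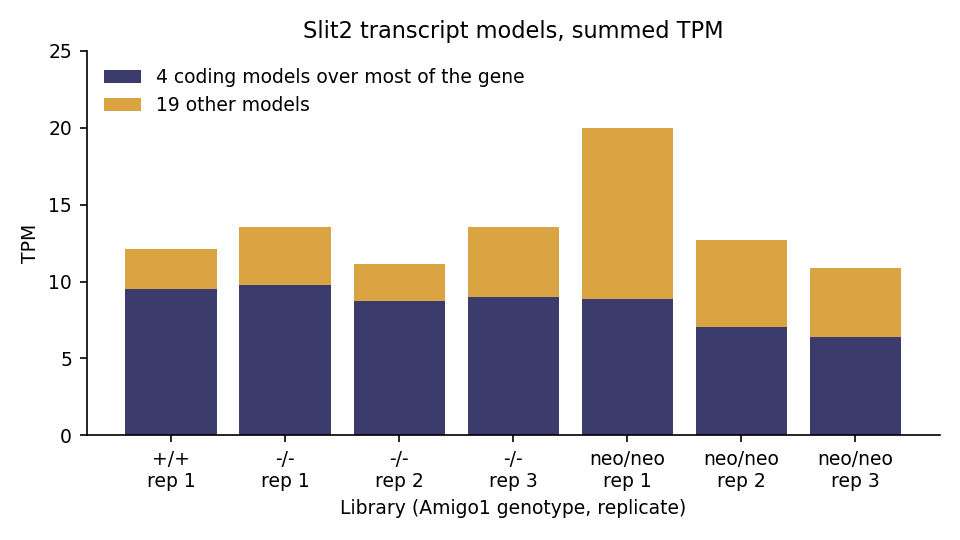
Slit2 TPM per library, stacked as 4 long protein-coding models and 19 other models. The long models sum to 8.75 to 9.76 TPM in the -/- libraries and 6.38 to 8.87 in the neo/neo libraries, while the other models reach 11.1 TPM in neo/neo replicate 1.

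Of the 15 Slit and Robo transcripts tested, 0 had an adjusted p under 0.05 (limma on log2(TPM + 0.1)), as for the whole table, where 0.00% of 44981 transcripts did. Slit2-208, a long coding model, was the only one with an unadjusted p under 0.05, beside 5.18% of all transcripts. It was at 3.01, 3.42 and 3.40 TPM in KO, 2.01, 1.52 and 1.92 TPM in neo and 2.06 TPM in WT, so that KO stood above both other groups. Its log2 difference of neo from KO was -0.82 with an adjusted p of 0.868 in limma. Slit2-216, the leading model by mean TPM, held 43.2, 41.3 and 24.6% of Slit2 TPM in KO and 21.2, 25.1 and 31.8% in neo, and those shares overlapped. An exact permutation test of this share, in which 3 libraries against 3 cannot go below p = 0.1, gave p = 0.3, and over the 5 genes tested all values adjusted to 1.

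Slit3 was carried by a single coding model, Slit3-201, which held 100% of its TPM in 6 of 7 libraries and 90.9% in neo replicate 2. Slit1 TPM came mainly from Slit1-203 and Slit1-201, both of them long coding models. Of these, Slit1-203 averaged 2.83 TPM ± 0.335 over the KO libraries and 3.30 TPM ± 0.512 over the neo libraries (SD, n = 3), and the groups overlapped.

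Slit2 and Slit3 host a microRNA, miR-218, known to target Robo transcripts, and its sequence is shown with the matching letters in the receptors. RefSeq (GRCm38.p6) places one copy in an intron of Slit2, at chr5:48223966-48223986, and another in an intron of Slit3, at chr11:35616840-35616860, each on the strand of its host. Both give the same mature sequence, here with its seed (bases 2 to 8) in capitals.
miR-218-5p: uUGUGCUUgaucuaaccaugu
The reverse complement of the seed, AAGCACA, occurs in the longest annotated 3′ untranslated region (GENCODE vM21) of each of the 3 Robo genes, shown here in capitals within its surrounding letters on the strand of the gene.
Robo1: tttttttggttttaaAAGCACAa
Robo2: attttatttggtgatAAGCACAa
Robo2: agtcacggcagacccAAGCACAg
Robo3: gcttgtgactcactgAAGCACAc
The Robo1 match lies at chr16:73045333-73045355, the Robo2 matches at chr16:73895358-73895380 and chr16:73893032-73893054, and the Robo3 match at chr9:37416244-37416266. Among untranslated regions within 20% of the same length, 18.1% hold at least 1 match for Robo1 and 2.84% for Robo3, and 8.09% hold at least 2, as Robo2 does. Slit2 holds 2 matches, and 6.19% of regions of its length hold at least as many, while Slit1 and Slit3 hold none. A match is a description of the letters and not evidence of binding. The hairpin genes Mir218-1 and Mir218-2 had 0 counts in every library, and poly(A) libraries of this kind do not measure mature microRNAs, so the level of miR-218 is not given by these data.

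Among the receptors, Robo1 (ENSMUSG00000022883.10, chr16:72663149-73046095, plus strand) was higher in neo at an unadjusted p alone. In neo it was at 112, 106 and 117 CPM, beside 107, 90.3 and 80.4 CPM in KO and 93.5 CPM in WT. KO replicate 1 lay just above neo replicate 2, so the groups overlapped by 1 library, and all neo libraries were above WT, as for 21.7% of all genes. The log2 difference of neo from KO was 0.27 (SE 0.11, 95% interval 0.01 to 0.53), with an unadjusted p of 0.0411 and an adjusted p of 0.523 in edgeR, and it was 0.18 without KO replicate 3. From WT, KO differed by -0.01 (95% interval -0.38 to 0.35) and neo by 0.26 (95% interval -0.11 to 0.63). The table holds 1 model of Robo1, the coding Robo1-201, at 14.5 to 18.9 in KO and 17.8 to 24.8 in neo.

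Robo2 (ENSMUSG00000052516.17, chr16:73892306-74411825, minus strand), the receptor graded along the dorsal to ventral axis, stood at 157, 125 and 114 CPM in KO, beside 140, 105 and 131 CPM in neo and 134 CPM in WT. The 3 genotypes overlapped throughout. The log2 difference of neo from KO was -0.07 (SE 0.15, 95% interval -0.40 to 0.26), and from WT it was -0.02 in KO (95% interval -0.48 to 0.45) and -0.09 in neo (95% interval -0.56 to 0.37). In levels, the interval for neo against KO spans 0.757 to 1.197 times. The leading model, Robo2-202, held 45.4 to 53.0% of Robo2 TPM in KO and 43.5 to 52.7% in neo, and the coding models Robo2-201 and Robo2-203 made up most of the rest.

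Robo3 (ENSMUSG00000032128.15, chr9:37415669-37433246, minus strand) was near the limit of detection. It had 9, 42 and 36 counts in KO, 56, 19 and 30 in neo and 36 in WT. Replicates of 1 group spanned nearly as much as the 7 libraries together, from 0.551 to 2.25 CPM in KO and from 1.14 to 2.38 CPM in neo. The log2 difference of neo from KO was 0.20 with a 95% interval of -0.89 to 1.30, which spans levels of 0.538 to 2.47 times that of KO. An interval this wide cannot tell a lower level in neo from a higher one.

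Robo1 and Robo2 lie on the same chromosome, with 846 kb between their 3′ ends, and the balance between them differed by library. The ratio of Robo2 to Robo1 TPM was 1.94, 1.83 and 1.82 in KO, 1.67, 1.42 and 1.51 in neo and 1.93 in WT. All 3 neo libraries were below all KO libraries and WT, and the same held for CPM per kb of exon, at 1.34 to 1.42 in KO, 0.961 to 1.21 in neo and 1.39 in WT. The ratio was chosen after its values were seen and is a description with no test. It is 1 of 6 ratios between members. Of these, 3 did not overlap between neo and KO in TPM and 5 did not in CPM per kb of exon. The 6 ratios reuse the same genes, so they are not independent of each other. The share of ratios between other genes that do not overlap was not computed. The other member ratios that did not overlap in TPM were Robo1 to Slit3, at 3.54 to 5.24 in KO and 6.24 to 9.40 in neo, and Slit2 to Slit3, at 3.32 to 3.50 in KO and 4.02 to 7.56 in neo.

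**Figure D5:**
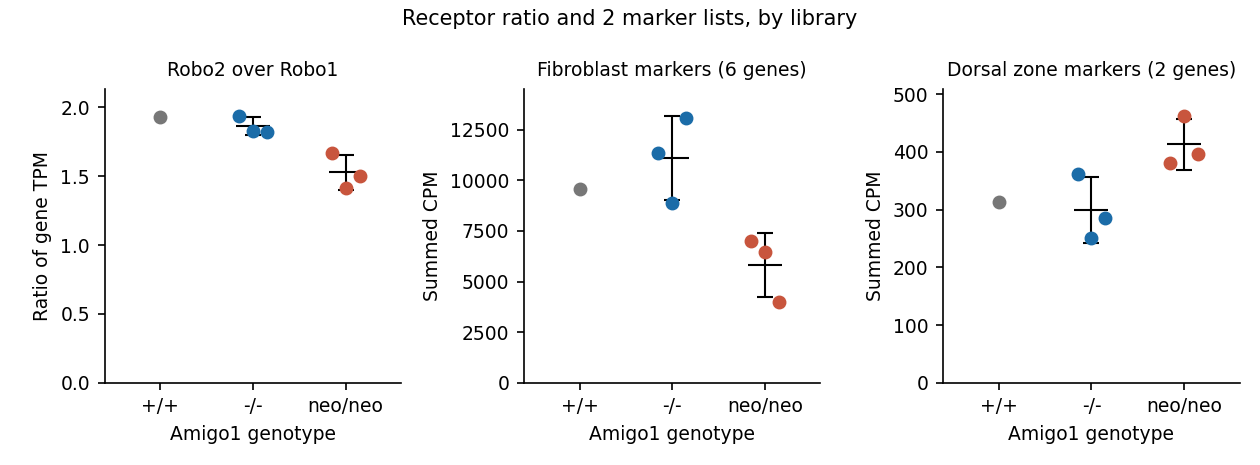
Ratio of Robo2 to Robo1 TPM and the summed CPM of 6 fibroblast and 2 dorsal zone markers by Amigo1 genotype, 1 point per library, with the mean and SD of the groups of 3 in black. The 3 neo/neo libraries lie below the others in the ratio and in the fibroblast sum and above them in the dorsal zone sum. Most of the fibroblast sum is from Col1a1 and Col1a2, which bone cells also make.

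Markers of other cell types also differed between neo and KO. The 6 fibroblast markers summed to 11351, 8906 and 13060 CPM in KO, to 6991, 6462 and 4016 CPM in neo and to 9550 CPM in WT. Of them, Col1a1 and Col1a2 were lower at an unadjusted p under 0.05, with log2 differences of -1.09 and -1.11. They encode the chains of type I collagen, made by bone cells as well as fibroblasts. Col1a1 and Col1a2 made up most of the fibroblast sum, at 4700 and 4892 CPM in KO replicate 1. Dcn (0.03), Pdgfra (-0.22) and Col3a1 (-0.18) overlapped between groups, and Lum (-0.38) was lower in every neo library than in every KO library. Over all genes tested, 4.72% were lower in neo and 4.59% higher at an unadjusted p under 0.05 in edgeR. The 7 bone and cartilage markers summed to 862 to 1174 CPM in KO and to 251 to 689 CPM in neo. Ibsp was the largest part of this sum, at 675 to 945 CPM in KO and 117 to 497 CPM in neo. The bone markers Bglap, Ibsp, Sp7 and Alpl were lower and Col9a1 higher at an unadjusted p under 0.05. The cartilage markers Col2a1 (0.17), Col9a1 (0.42) and Acan (0.16) all had positive log2 differences. No marker of either list was at 0 in any library and none passed after adjustment. Of 4 macrophage markers, which summed to 64.5 to 71.5 CPM in KO and 67.1 to 92.7 CPM in neo, 3 were higher in neo at an unadjusted p under 0.05, with a median log2 difference of 0.64 over the list. So were Sult1c1, a marker of sustentacular support cells (0.66), and Trp63, one of horizontal basal cells (0.46). None of these passed after adjustment in edgeR. The other sustentacular markers, Cyp2g1 (0.06), Cyp1a2 (0.03) and Ermn (0.12), overlapped between groups. The same held for the other horizontal basal markers, Krt5 (0.32) and Krt14 (0.08). Slit3 was lowest in neo replicate 1, where the fibroblast and bone sums were the highest of the neo group. Slit2 was lowest in neo replicate 3, where both sums were the lowest. Among the KO libraries, Slit2, Slit3 and both sums were all lowest in KO replicate 2. The part of these cells in the Slit2 and Slit3 values was not tested, and in whole tissue fewer cells of a type cannot be told apart from less RNA per cell.

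Zone and neuron markers bear on the receptors, which olfactory neurons make. The dorsal zone markers Nqo1 and Acsm4 summed to 362, 250 and 286 CPM in KO and to 314 CPM in WT. In neo they summed to 380, 463 and 396 CPM. Both were higher in neo than in KO at an unadjusted p under 0.05, as were 4.59% of all genes. Their log2 differences were 0.44 and 0.48 (adjusted p = 0.498 and 0.487, edgeR). The ventral zone markers Ncam2 and Nrp2 summed to 269.5 to 290.2 CPM in KO and 214 to 290.1 CPM in neo, with log2 differences of -0.11 and -0.25. Robo2, which follows the same axis, differed by -0.07, and whether that departs from the markers was not tested. The 8 mature neuron markers summed to 3029 to 3317 CPM in KO and 3451 to 3921 CPM in neo, 6 immature neuron markers to 2272 to 2399 and 1868 to 2278 CPM, and 5 ensheathing glia markers to 290.5 to 325 and 291.5 to 312 CPM. None of these lists had a member at 0 or past the threshold. At an unadjusted p under 0.05 in edgeR, the mature neuron marker Stoml3 was higher in neo (0.30). The immature neuron marker Gap43 (-0.28) and the glia marker Sox10 (-0.41) were lower, as were 4.72% of all genes. All 8 mature neuron markers had positive log2 differences, with a median of 0.22. The part of these lists in the Robo1 value was not tested.

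None of the other pathway and zone genes passed the test. All 50 genes of 5 lists, 1 of them the zonal guidance genes and zone markers, were tested, and 0 of 50 had an adjusted p under 0.05 in any of the 3 edgeR comparisons. In neo against KO, 3 were higher (Ntn1 and the zone markers Nqo1 and Acsm4 given above) and 1 was lower (Nck1) at an unadjusted p under 0.05, beside 4.59% and 4.72% of all genes. Their median log2 difference was -0.0015, beside -0.0022 over all genes.

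Among other ligands and receptors, Robo4, the endothelial member of the Robo family, was at 5.68 to 8.08 CPM in KO and 6.17 to 7.44 CPM in neo, with a log2 difference of 0.04. Nell2, a ligand of Robo3, was at 32.7 to 33.9 CPM in KO and 30.0 to 37.8 CPM in neo, with a log2 difference of -0.02. Ntn1, the attractive cue netrin-1, was at 33.9, 36.2 and 43.4 CPM in KO and 46.3, 46.8 and 54.7 CPM in neo. The groups of Ntn1 did not overlap, and its log2 difference was 0.38 with an adjusted p of 0.490 in edgeR. Plxna1 and Dag1, a plexin receptor and dystroglycan, which binds Slits, led this list in TPM and differed by -0.13 and 0.01.

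Of 12 heparan sulfate core proteins and enzymes, 0 passed an unadjusted p under 0.05 in neo against KO, where 9.3% of all genes did in edgeR. The syndecans Sdc2, Sdc3 and Sdc4, cell surface carriers of heparan sulfate, differed by -0.01, -0.14 and 0.03 on the log2 scale. Inside the cell, Nck1, an adaptor that links Robo to the cytoskeleton, was the one gene of 20 with an unadjusted p under 0.05. In neo it was at 26.1, 22.8 and 23.1 CPM, beside 33.0, 33.9 and 28.7 CPM in KO and 33.3 CPM in WT, with all neo libraries below the rest, a log2 difference of -0.41 and an adjusted p of 0.470 in edgeR. Usp33, a deubiquitinase that keeps Robo1 at the surface, was at 99.7 to 108 CPM in KO and 110 to 123 CPM in neo, with a log2 difference of 0.17 and an adjusted p of 0.572.

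Genes whose levels followed each member most closely over the 7 libraries were ranked by Pearson's r of log2(CPM + 1) among 15022 genes. These are descriptions over 7 points that share library depth and cell makeup. Each r is the highest of 15022, and how high the top r of unrelated genes would be was not computed. Robo3, at 9 to 56 counts per library, reached a top r as high as the other members did. The partners are therefore no evidence of shared regulation or function. Robo2 was closest to Nrp1, a guidance receptor for semaphorins (r = 0.982), then to E2f3 (0.975) and Ctdspl2 (0.973). Slit2 was closest to Tnc, the matrix protein tenascin C (r = 0.987), then to Fat3 (0.983) and Bcan (0.980). For Robo1 the genes were Drosha (r = 0.988), Olfr918 (0.984) and Topbp1 (0.984), and for Slit3 they were Trim16 (r = 0.996), Fndc3b (0.992) and Ocln (0.980). For Slit1 they were Pik3r4 (r = 0.967), Pelp1 (0.966) and Lrrtm1 (0.966), and for Robo3 Mthfd2l (r = 0.987), Col20a1 (0.987) and Prss12 (0.978). Among the members themselves, Slit2 and Slit3 had the highest correlation (r = 0.83, n = 7), and Robo1 and Slit3 the lowest (r = -0.65).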

How the data were processed

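Read counts per gene were deposited by the authors as whole numbers. The submitters' processing notes name Trimmomatic 0.35, STAR 2.5.1b and the build GRCm38 (mm10), without the part of each tool. Their TPM values per gene and transcript are RSEM estimates, per the file headers. The authors' deposited comparison of KO with neo, made with DESeq2 1.18.1, gave log2 fold changes, p-values, a standard error used as a score and a normalised signal per library, per the file headers. Poly(A) libraries were made with a KAPA kit, per the labels' protocols.

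The 6 members, the gene lists and the rule for named genes (all members, list genes past the threshold, the 3 most abundant and 2 with the smallest p per list, Robo4 and Nell2, and the 3 most alike genes per member) were chosen with earlier results of these data known. Slit2-208 and the ratios between members were named after their values were seen. Counts (14879415 to 21343058 per library, 4 rows that name no gene left out) were tested with edgeR 4.0.16 in R 4.3.3: TMM, filterByExpr (minimum count 10, total 15), robust quasi-likelihood F test, Benjamini-Hochberg at 0.05, two-sided. Neo against KO used 6 libraries; comparisons with WT used all 7 and assume that WT varies like the others. Transcripts were tested with limma 3.58.1 on log2(TPM + 0.1) where mean TPM reached 0.5. The edgeR and limma fits of neo against KO were checked on simulated data with known changes. Every pair of libraries differed by more than counting noise (chi-square over its degrees of freedom at least 8.96). Pairs with neo replicate 1 had the highest values, at 60.8 to 112, beside at most 35.4 for the other pairs. Neo replicate 1 also had the lowest share of multimapping reads, at 14.5% beside 17.3 to 19.6% in the other libraries. Sample names carry a prefix and a date-like number, both shared by WT and KO and different in neo, which cannot be told apart from genotype.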

Additional observations from a re-analysis of the deposited data

How the results depend on the processing

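No Slit or Robo gene passed an adjusted p of 0.05 in any comparison under any of the 14 alternatives run for each, nor any transcript under 9: the number called was 0 throughout, also with each library left out in turn (lowest and highest 0). The lowest adjusted p was 0.0880 in neo against KO (Slit3, DESeq2), 0.9997 in KO against WT and 0.796 in neo against WT. The share of the leading transcript, a value in percentage points, moved by less than the SD between replicates on leaving out 1 library, but the neo minus KO difference of Robo2 (0.040) ran from -2.01 to 2.57 and that of Slit3 (-3.04) from -4.56 to 0. In neo against KO, Slit1, Slit3 and Robo1 kept their sign under all 14. Slit2 turned positive on gene TPM (0.15 and 0.14 with pseudocounts of 0.1 and 1), as it did against WT (0.21 and 0.20). Robo2 turned positive on gene TPM (0.086 and 0.084), without KO replicate 1 (0.071) and without neo replicate 2 (0.046), with leave-one-out values of -0.16 to 0.071, and Robo3 negative without KO replicate 1 (-0.19) or neo replicate 1 (-0.045), with a range of -0.19 to 0.54. In KO against WT, Robo1 ran from -0.13 to 0.079, Robo2 from -0.16 to 0.073 and Robo3 from -0.37 to 0.36 on leaving out 1 library; in neo against WT, Robo2 ran from -0.16 to 0.024 and Robo3 from -0.071 to 0.41. The causes of these turns were not tested. The number of all genes called in neo against KO was 3, and 101 with DESeq2, 40 without a count filter, 17 without neo replicate 1 and 1 under several others.

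Ordering the 6 genes by CPM per kb of all annotated exon put 4 in the same place, since Slit1 then stood above Slit2; per kb of the leading transcript, an alternative added after seeing the data, all 6 kept their place. As a replicate block, the numbers in the titles turned Robo1 (0.095) and Robo2 (0.18) positive in KO against WT and Robo2 (0.11) positive and Robo3 (-0.049) negative in neo against WT, and called 0 of 6 genes; it called 1 gene of all in neo against KO. Same-numbered KO and neo libraries had correlations of deviations of -0.10, -0.05 and 0.19, and pairs with different numbers ran from -0.18 to 0.24. With 3 libraries per group, these values cannot decide whether the numbers pair the libraries. Depth limits Robo3 most, at 9 to 56 counts per library.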
